A study of Mus musculus with 5 samples.

Results

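The 99 genes described here are the ribosomal protein genes of mouse CD8+ T cells, taken from the 13911 genes of a single-cell table. The rule used symbols and no values, but the family was chosen with earlier results of these data known. The rule took symbols that begin with Rpl or Rps and a digit, Rplp and a digit, and Rpsa, and left out Rps27l and the S6 kinases. It returned 77 core ribosomal proteins (46 of the large and 31 of the small subunit), 5 second-copy genes (Rpl22l1, Rpl36al, Rpl39l, Rpl6l and Rps27rt), 15 processed copies with -ps in the symbol, and 2 genes that encode other proteins. These classes follow the symbols: GENCODE M21 lists the second-copy gene Rpl6l as a processed pseudogene, and 4 of the 15 -ps genes as protein coding. The 2 genes that encode other proteins are Rpl7l1, a nucleolar relative of Rpl7, and Rps19bp1, a protein that binds Rps19.

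The T cells were OT-I cells from spleen and lymph nodes of strain C57BL/6-Tg(TcraTcrb)1100Mjb/J, whose transgenic T cell receptor recognises the ovalbumin peptide SIINFEKL. They were sorted and profiled with 10x Genomics droplets at 0 h (2952 cells) or after co-culture with dendritic cells (DCs) loaded with that peptide. The cultures ran for 24 h with DCs (1562 cells), 24 h with DCs and myeloid-derived suppressor cells (MDSCs, 2247 cells), 72 h with DCs (1926 cells) or 72 h with DCs and MDSCs (4942 cells). MDSCs are immature myeloid cells that can restrain T cells. All 4 cultures held peptide-loaded DCs, so effects of stimulation and of time in culture cannot be told apart. Each group was 1 library, so every ratio compares 2 libraries, no test was possible, and the spread between cultures is unknown.

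Ribosomal proteins are the structural partners of ribosomal RNA: the small subunit decodes the messenger RNA and the large subunit joins the amino acids. Naive T cells hold few ribosomes and little cytoplasm, and after antigen contact they enlarge and make new ribosomes before they divide. The messenger RNAs of ribosomal proteins usually begin with a C followed by a run of pyrimidines, the terminal oligopyrimidine or TOP motif, through which TOR signalling controls how strongly they are translated. Levels of these messenger RNAs are therefore no measure of protein made.

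The start sites show that motif and which members lack it at the annotated position. RefSeq promoters (GRCm38.p6) were given for 57 of the 77 core members, and in 13 of the 57 (22.8%) the annotated start was a C followed by 4 or more C or T. Of all 27025 genes with such promoters, 3.01% had such a start. Of 68 mitochondrial ribosomal proteins and 39 ribosome biogenesis factors, 0 did. Within 10 bases of the start such a run was found in 34 of the 57 (59.6%). It was found in 34.4% of all these genes and in 45.6% of the mitochondrial ribosomal proteins. A gene with several annotated starts was counted if any of them matched. Each window below holds 15 bases before the annotated start and 15 from it onward, read on the strand of the gene, and capitals mark the stretch of C and T that starts from the C nearest to the annotated start, within 10 bases of it, that is followed by 4 or more C or T. Other such runs farther off stay in lower case. Only that strand was searched, and a match is a description of the letters. The windows are those of members on which the results turn: Rps27 (chr3:90213634-90213663, minus strand), its near copy Rps27rt (chr9:114982725-114982754, minus), Rps15a (chr7:118116133-118116162, minus), Rps21 (chr2:180257364-180257393, plus, the first of its annotated starts), Rpl15 (chr14:18270972-18271001, minus), Rps26 (chr10:128626492-128626521, minus), Rpl39 (chrX:37085208-37085237, minus), Rps2 (chr17:24720048-24720077, plus), Rpl22l1 (chr3:28805493-28805522, plus), Rpl7l1 (chr17:46782642-46782671, minus) and Rps19bp1 (chr15:80264292-80264321, minus).
Rps27: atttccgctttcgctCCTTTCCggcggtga
Rps27rt: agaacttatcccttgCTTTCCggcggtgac
Rps15a: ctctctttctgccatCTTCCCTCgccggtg
Rps21: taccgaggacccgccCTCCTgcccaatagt
Rpl15: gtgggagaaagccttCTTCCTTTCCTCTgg
Rps26: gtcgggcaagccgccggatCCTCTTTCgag
Rpl39: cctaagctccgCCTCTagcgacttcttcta
Rps2: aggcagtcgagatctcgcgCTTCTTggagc
Rpl22l1: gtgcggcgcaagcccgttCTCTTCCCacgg
Rpl7l1: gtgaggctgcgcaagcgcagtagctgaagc
Rps19bp1: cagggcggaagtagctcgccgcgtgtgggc
In the first 5 windows the capitals begin at the annotated start itself. In all of these except that of Rps27rt, a further C or T lies directly before it. In the next 4 they begin 3 or 4 bases to one side, and the windows of the 2 non-ribosomal members hold no such run.

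The deposited values are whole numbers adjusted by the authors, not molecules, and the sequencing depth is unknown. A level is given as adjusted CPM, the adjusted counts of a gene per 1000000 adjusted counts of its library, and levels are compared between libraries, not between genes. Of the 99 members, 92 reached 50 CPM in at least 1 library and 90 in all 5, and 0 members were at 0 in a library. The 77 core members were above 0 in 100% of the cells of every library. The 7 members under 50 CPM everywhere were 6 processed copies and Rpl39l, and they are left out of the counts below. The 0 h library stood apart: of the values above 0 among 3915 rare genes, 26.3% equalled 1 there, against 95.2 to 96.8% elsewhere, and values against 0 h carry that limit. Cells at 0 h had a median of 2210.0 detected genes, and those of the cultures 3111 to 3621. The T cell transcripts Cd3d, Cd3e, Cd3g, Cd8a, Cd8b1 and Thy1 were above 0 in all 5 libraries, with a summed level of 2019.7 to 6384 CPM, and the summed markers of DCs, granulocytes, monocytes, B cells, NK cells and CD4 T cells were each at most 27.5 CPM. Across libraries 110 barcode sequences occurred more than once (220 of 13629 cells).

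Ribosomal protein genes took the largest share of the adjusted counts at 0 h and the smallest at 24 h with MDSCs. They held 45.2% of the library at 0 h, 38.8% at 24 h with DCs, 33.7% at 24 h with DCs and MDSCs, 38.1% at 72 h with DCs and 39.7% at 72 h with DCs and MDSCs. In the cells lowest in cell cycle counts, out of 3 classes of equal size over all libraries, the shares were 45.7, 43.9, 35.6, 41.7 and 44.2% in the same order. Over single cells the standard deviation of the share was 5.43 points at 0 h, 5.86 (DC) and 2.95 (DC+MDSC) at 24 h, and 4.19 and 4.69 at 72 h. The small subunit made up 44.0 to 45.5% of the core counts in all 5 libraries, so the balance of the subunits moved little beside the total.

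**Figure D1:**
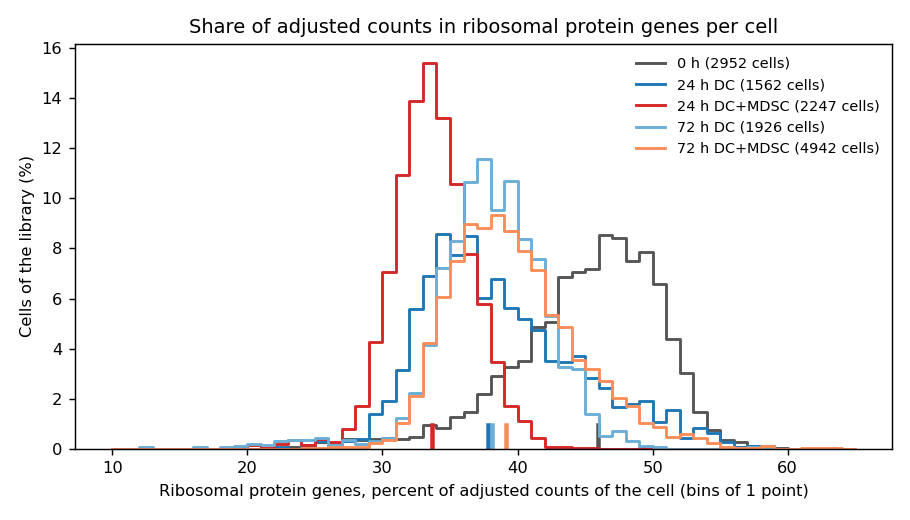
Distribution over cells of the share of adjusted counts held by the 99 ribosomal protein genes (x axis, percent of the cell, bins of 1 point) as percent of the cells of each library (y axis). Short bars at the bottom mark the medians. The 24 h library with MDSCs is the narrowest and lowest, with its median at 33.7%, and the 24 h library with DCs has a tail to the right that reaches 50.1% at its 95th percentile.

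The 24 h libraries differed most in their upper tail. With DCs alone the 5th, 50th and 95th percentiles of the share were 31.2, 37.8 and 50.1%, and with MDSCs they were 29.4, 33.7 and 38.6%. The library with MDSCs differed by -1.80 points at the 5th percentile, -4.19 at the median and -11.5 at the 95th. Cells with a share of 45% or more were 246 of 1562 (15.7%) with DCs and 2 of 2247 (0.0890%) with MDSCs. At 72 h the order was the opposite: 61 of 1926 cells (3.17%) with DCs and 671 of 4942 (13.6%) with MDSCs were at 45% or more.

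At 24 h with DCs against 0 h, most core members were at a lower share of the library, with the small proteins lowest and Rps2 and Rps12 going the other way. Only genes that reached 50 CPM in one of both libraries were counted. Among the 92 such members 25 were lower by 1.5-fold or more and 4 higher, and among all 2742 such genes 20% were lower and 44.9% higher. The median log2 ratio was -0.22 for the members and 0.42 for all genes, and 54 of the 77 core members were below 0, where 35.7% of all genes were. In the lowest of 3 classes of the cells of both libraries by cell cycle counts, the median over the members was -0.029. Large and small subunit had nearly the same median, -0.20 and -0.22.

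Rps27, a small subunit protein with a zinc finger, was the lowest of the core. Its level was 10326 CPM at 0 h, 2598 (DC) and 1947 (DC+MDSC) at 24 h, and 2782 and 2575 at 72 h. The 0 h library was far above the other 4, and the log2 ratio at 24 h with DCs was -1.99. Rps28, a small subunit protein at the messenger RNA exit, was at 4978 CPM at 0 h and at 1778, 1404, 1813 and 1967 in the same order (log2 ratio -1.49). Rps29, another small zinc-binding protein of the head of the small subunit, was at 7704 CPM at 0 h and at 3103, 2456, 2608 and 2669.8 in culture (log2 ratio -1.31). For these 3 genes the 4 cultured libraries lay close together and under the 0 h value. Rps21, Rpl39, Rpl27, Rpl38 and Rpl35 were also more than 1 log2 unit lower, at -1.18, -1.09, -1.07, -1.06 and -1.05, and each was below its 0 h level in all 4 cultures.

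The higher members were few. Rps2, a small subunit protein at the entry of the messenger RNA channel, was at 5259 CPM at 0 h and at 10953, 9753, 10119 and 9666 in the 4 cultures, a log2 ratio of 1.06 at 24 h with DCs. All 4 cultured libraries were above the 0 h library. Rps12, a protein of the beak of the small subunit, was at 3681 CPM at 0 h and at 5906, 4745, 4892 and 4502 in culture (log2 ratio 0.68). The other 2 members past 1.5-fold were Rps19bp1 (1.38) and Rpl7l1 (1.31), which are not ribosomal proteins.

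Within the core, this difference ran with coding length. The 26 members with the shortest coding sequences (138 to 405 bases) had a median log2 ratio of -0.51 with 10 members past 1.5-fold lower. The 26 of middle length and the 25 longest had medians of -0.13 and -0.18, with 2 and 1 members lower. Over the 77 core members the Spearman correlation of the ratio with coding length was 0.41, and over 1465 genes outside the family at 50 CPM or more in both libraries it was 0.04. These points all come from the same 2 libraries, so the correlation only describes them. In the other 4 comparisons the core values lay between -0.07 and 0.04, and all of those leave out the 0 h library. Rpl41, the shortest member, was at 7983 and 8465 CPM, a log2 ratio of 0.08.

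**Figure D2:**
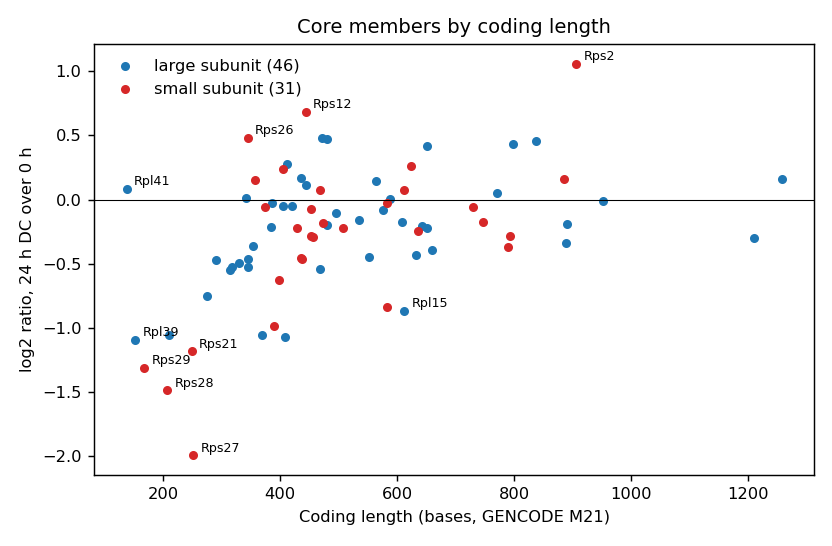
Log2 ratio of the level at 24 h with DCs over 0 h (y axis) against coding length in bases (x axis) for the 77 core members, colored by subunit. Rpl39, Rps29, Rps28, Rps21 and Rps27 are short and lie at -1.09 or lower, Rpl41 is the shortest and lies at 0.08, and Rps2, one of the longer ones, is at 1.06.

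The 4 cultured libraries alone gave a narrow picture. The highest level divided by the lowest over these 4 libraries had a median of 1.26 over the core, with a range of 1.06 to 1.98, and was under 1.5 for 70 of the 77 members. With 0 h included the median was 1.46 and 43 members were under 1.5. The highest level was at 0 h for 45 of the 77 core members and the lowest at 24 h with MDSCs for 51. Of all 3260 genes that reached 50 CPM in a library, 16.3% were highest at 0 h and 9.75% lowest at 24 h with MDSCs.

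Of 7 named members of the stalk or with known roles beside translation, all but Rplp0 were lowest at 24 h with MDSCs. So were 51 of all 77 core members, so this is not particular to the 7. Rplp0, Rplp1 and Rplp2 form the stalk that recruits elongation factors. Rplp0 was at 8341 CPM at 0 h, 8268 (DC) and 6849 (DC+MDSC) at 24 h, and 6779.5 and 6213 at 72 h, so the libraries at 24 h with MDSCs and at 72 h were below the first 2. Rplp1 spanned 7606 to 9052 CPM and Rplp2 4524 to 7169 CPM over the 5 libraries. Rpl5 and Rpl11, which bind the 5S ribosomal RNA and can restrain Mdm2, spanned 2087 to 2786 CPM and 3805 to 5170.1 CPM. Rps6, a target of the S6 kinases, was at 6981, 6168, 5296, 6173 and 6383 CPM in the order 0 h, 24 h without and with MDSCs, 72 h without and with MDSCs. Rpsa, also known as a laminin receptor, was at 5064, 5656, 4851, 6277 and 5829 CPM. For each of these 7 except Rplp0 the lowest of the 5 levels was at 24 h with MDSCs.

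From 24 h to 72 h with DCs the core as a whole hardly moved. The median log2 ratio was -0.03 for the members, or 0.11 once ratios were centred on the median of all genes, and -0.25 for all genes. Of the 92 members 4 were at least 1.5-fold lower and 1 higher, where 37.6% and 23.4% of all 2931 genes at that level were. The lower ones were Rpl7l1, Rps19bp1, Rps26 and the processed copy Rps26-ps1, and the higher one was Rpl22l1. Rps26, a small subunit protein at the messenger RNA exit that contacts the sequence before the start codon, was at 3397 CPM at 0 h, 4745 (DC) and 3896 (DC+MDSC) at 24 h, and 2473 and 2397 at 72 h. Both 72 h libraries were below the other 3, and the log2 ratio at 72 h against 24 h was -0.94 with DCs and -0.70 with MDSCs. Rpl39, a small protein in the wall of the exit tunnel, was at 5536, 2598, 2017, 3783 and 3893 CPM, with both 72 h libraries above both 24 h libraries (log2 ratio 0.54 with DCs and 0.95 with MDSCs).

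With MDSCs, the step from 24 h to 72 h was larger for the core. The median log2 ratio over the members was 0.25 and that over all genes -0.48. Of the 92 members 5 were at least 1.5-fold higher (Rpl39, Rps15a, Rpl22, Rps19 and Rpl3) and 4 lower, and 63 of the 77 core members were above 0. Of all 2974 genes 15.3% were higher and 45.3% lower at 1.5-fold, and 32.8% were above 0. The 4 lower ones were Rps19bp1, Rpl7l1, Rps26-ps1 and Rps26, as with DCs alone, and the overlap over all genes was not counted. With DCs alone only Rpl22l1 was higher by 1.5-fold. There Rpl39, Rps15a, Rpl22, Rps19 and Rpl3 were at 0.54, 0.44, 0.24, 0.06 and 0.31. This comparison and that with DCs alone share no library.

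**Figure D3:**
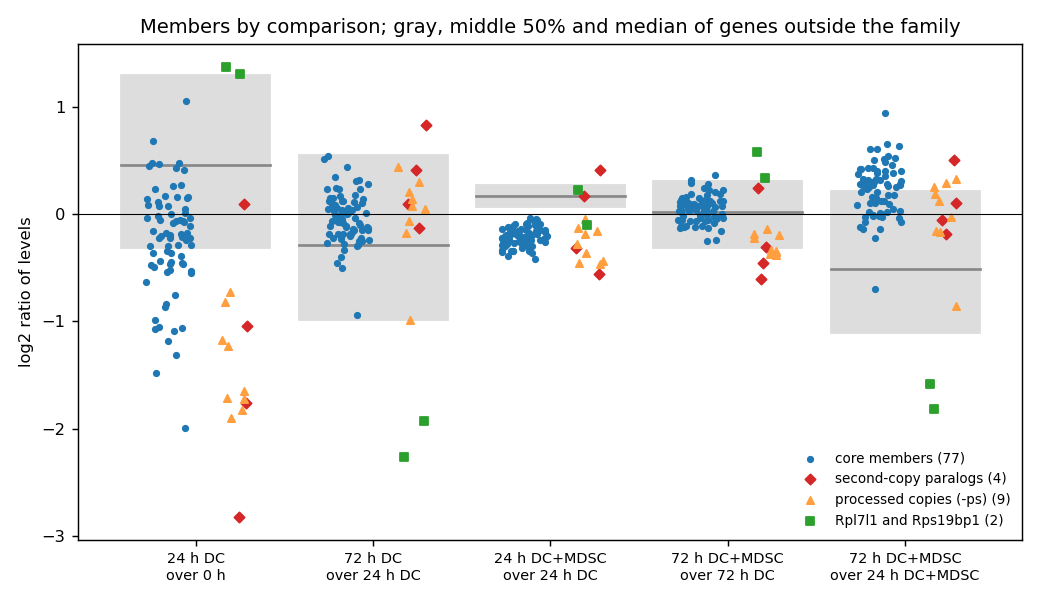
Log2 ratio of the level (y axis) in each of the 5 comparisons (x axis) for the core members, second-copy genes, processed copies and the 2 non-ribosomal members that reached 50 CPM, each point a gene. The gray boxes span the middle 50% of genes outside the family and the gray line is their median. At 24 h with MDSCs over DCs all 77 core members lie below 0 and below the gray box.

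At 24 h, with MDSCs against DCs alone, every core member was lower, by a small and even amount. The log2 ratios of the 77 core members ran from -0.42 (Rps27) to -0.04 (Rpl15) with a median of -0.20. Of all 2717 genes that reached 50 CPM, 17.3% were below 0 and 82.7% above, and their median was 0.17. With a total that leaves out the members and the mitochondrially encoded genes, the median of all genes was 0.06 and that of the core -0.32. Past 1.5-fold there were 0 members in either direction, against 0.442% of all genes lower and 2.32% higher. Next to Rps27 the lowest core members were Rps4x, Rpl39, Rpl10, Rps24 and Rpl23a, at -0.39, -0.37, -0.35, -0.34 and -0.34, and nearest to 0 after Rpl15 were Rpl18 and Rpl27, at -0.04 and -0.05. The 3 members above 0 were Rpl22l1 at 0.41, Rps19bp1 at 0.22 and Rpl36al at 0.17. The shares add to 100% in each library, so a lower share of these abundant genes raises the share of the rest.

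Cell cycle transcripts differed between the 24 h libraries as well. The summed level of the G2 and M phase list was 2615 CPM with DCs and 4049 with MDSCs, and that of the S phase list 3923 and 4864. Cells of both libraries were therefore parted into 3 classes of equal size by their summed S, G2 and M phase counts, an alternative partly added after the data were seen. In the lowest class the median share was 41.3% over 802 cells with DCs and 35.0% over 468 cells with MDSCs, in the middle class 36.9% (480 cells) and 34.0% (790 cells), and in the highest class 34.2% (280 cells) and 32.7% (989 cells). The library with MDSCs was lower in each class. The median core log2 ratio was -0.22, -0.12 and -0.08 from the lowest to the highest class, with 75, 72 and 63 of the 77 members below 0.

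**Figure D4:**
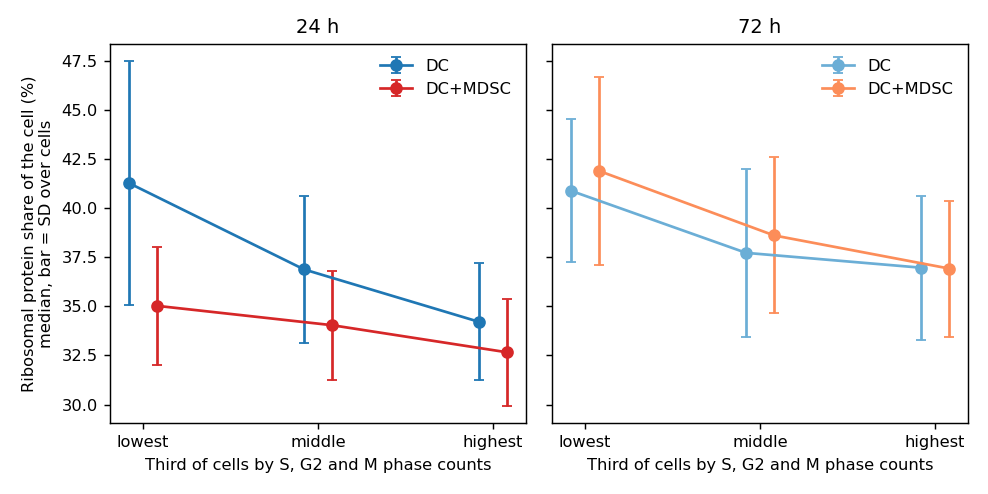
Median share of adjusted counts in ribosomal protein genes (y axis, percent of the cell, bars are the standard deviation over cells) in 3 classes of cells by cell cycle counts (x axis), at 24 h (left) and 72 h (right). At 24 h the gap between the libraries is 41.3 against 35.0% in the lowest class and 34.2 against 32.7% in the highest, and at 72 h it is 40.9 against 41.9% in the lowest class and 37.0 against 36.9% in the highest.

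Other values that moved with MDSCs at 24 h were those of myeloid and ribosomal RNA-like transcripts. The granulocyte and MDSC list, of which 5 of 11 genes were in the table, summed to 0.247 CPM with DCs and 4.23 CPM with MDSCs, and 4 and 0 of its 5 genes were at 0. The monocyte list (5 of 10 genes) summed to 0.247 and 2.06 CPM, with 2 and 0 genes at 0. The ribosomal RNA-like transcripts Gm42418, Gm26917 and AY036118 summed to 347 and 768 CPM. Their part in the result was not tested. Eif4ebp1, the translation inhibitor that TOR phosphorylates, was at 128 and 354 CPM (log2 ratio 1.47).

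At 72 h, with MDSCs against DCs alone, the core was split. The median log2 ratio was 0.07 over the core and 0.02 over all genes, and 51 of the 77 core members were above 0 and 26 below, where 52.1% of all 2424 genes were above 0 and 47.9% below. Of the 92 members 1 was at least 1.5-fold lower, Rpl22l1, and 0 higher, against 13.2% and 9.03% of all genes. Among the highest core members was Rps19 of the small subunit. This protein is needed to mature the 18S ribosomal RNA. Rps19 was at 9105 CPM at 0 h, 7682 (DC) and 6729 (DC+MDSC) at 24 h, and 7983 and 10284 at 72 h (log2 ratio at 72 h 0.37). Rps14, another small subunit protein, had a ratio of 0.28. The lowest core members were Rpl10a at -0.25, with 4956 CPM without and 4173 with MDSCs, and Rps21 at -0.24. In the 3 classes of cells by cell cycle counts the median share was 40.9 and 41.9% without and with MDSCs in the lowest class, 37.7 and 38.6% in the middle and 37.0 and 36.9% in the highest. The median log2 ratio over all members was -0.0087 in the highest class and 0.04 over all cells. The G2 and M phase list summed to 7615 CPM without and 6557 with MDSCs, the granulocyte and MDSC list to 0.103 and 1.27 CPM, and the ribosomal RNA-like transcripts to 322 and 499 CPM, and their part in the result was not tested.

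Rpl22l1 was higher with MDSCs at 24 h and lower at 72 h, and 0 members passed 1.5-fold in opposite directions. Its partner Rpl22 is a large subunit protein that binds RNA and is known to be needed for the development of alpha-beta T cells, and Rpl22l1 is the paralog that Rpl22 is known to hold down in some cells. In GENCODE M21 (GRCm38) Rpl22l1 lies at chr3:28805436-28807424 on the plus strand and Rpl22 at chr4:152325742-152334071. Their transcripts match at 62.5% of the bases of the shorter one.

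Rpl22l1 was at 2233 CPM at 0 h, 1081 (DC) and 1437 (DC+MDSC) at 24 h, and 1926 and 1263 at 72 h. It was thus higher with MDSCs at 24 h (log2 ratio 0.41) and lower with MDSCs at 72 h (-0.61). Rpl22 was at 2122, 1829.9, 1503, 2158 and 2344 CPM, with log2 ratios of -0.28 at 24 h and 0.12 at 72 h. The pair thus went in opposite directions at both times, with Rpl22 near the core medians of -0.20 and 0.07. At 24 h with DCs against 0 h both were lower, at -1.05 (Rpl22l1) and -0.21 (Rpl22). From 24 h to 72 h with DCs both were higher, at 0.83 and 0.24. From 24 h to 72 h with MDSCs they were at -0.19 and 0.64. Rpl22l1 divided by Rpl22 was 1.05 at 0 h, 0.591 (DC) and 0.956 (DC+MDSC) at 24 h, and 0.892 and 0.539 at 72 h. In single cells the median adjusted count of Rpl22l1 was 17 (5th to 95th percentile 5 to 31) and 22 (11 to 34) at 24 h, and 29 (11 to 46) and 18 (6 to 37) at 72 h, so the cells of the libraries overlapped.

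The direction held in every class of cells by cell cycle counts. Rpl22l1 had log2 ratios of 0.62, 0.30 and 0.19 at 24 h and of -0.91, -0.43 and -0.52 at 72 h, from the lowest to the highest class. In the authors' separately adjusted 24 h and 72 h tables the ratios were 0.38 and -0.60. Across the cells of 1 library, the Spearman correlation of the pair was -0.38 at 24 h with DCs (1562 cells) and -0.21 at 72 h with MDSCs (4942 cells), the 2 libraries where the ratio of the pair was lowest. It was between -0.05 and 0.06 in the other 3. The correlation of Rpl22l1 with the ribosomal protein share of the cell was -0.38 and -0.13 in the same 2 libraries. In the other 3 that correlation was between 0.08 and 0.31. Cells of a library share its preparation and their adjusted total, so these values describe the libraries only.

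**Figure D5:**
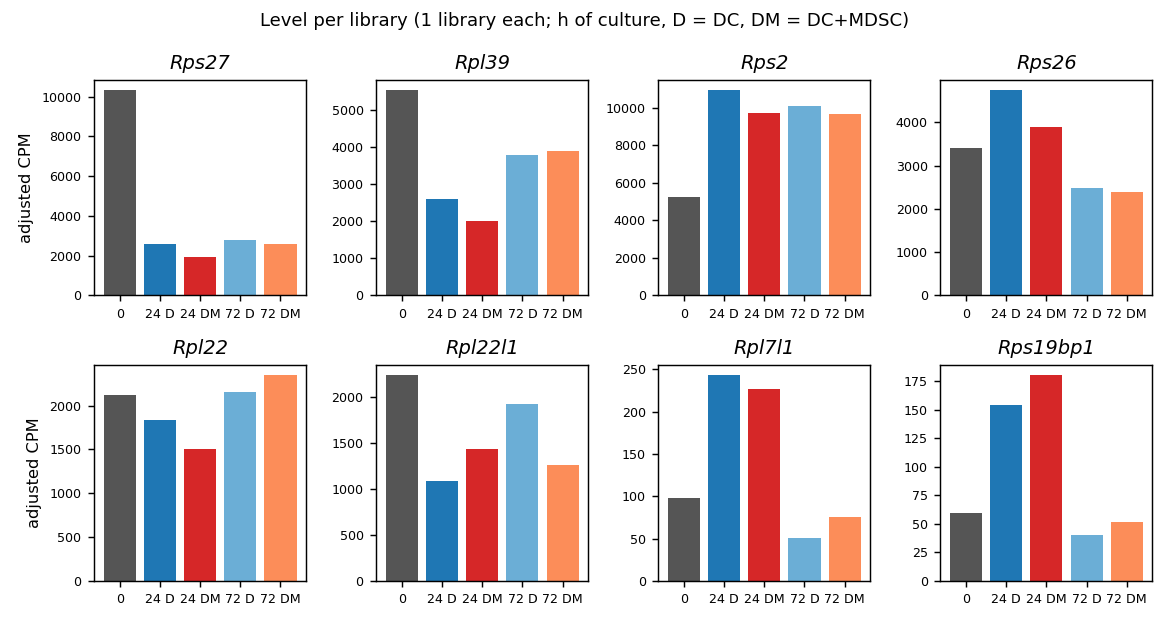
Level in adjusted CPM (y axis, from 0) of 8 members in the 5 libraries (x axis, hours of culture, D for DCs and DM for DCs with MDSCs), 1 library per bar. Rps27 stands at 10326 CPM at 0 h and at 2782 or lower elsewhere, Rpl22l1 is lowest at 24 h with DCs and next lowest at 72 h with MDSCs, and Rpl7l1 and Rps19bp1 are highest at 24 h.

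The other second-copy genes at 50 CPM or more had MDSC ratios of the same sign at both times. Rpl36al, which encodes a protein almost the same as that of Rpl36a, was at 1305 CPM at 0 h, 1390.1 and 1559 at 24 h, and 1268 and 1502 at 72 h, higher with MDSCs at both times (log2 ratios 0.17 and 0.24). Rpl36a itself was at 3747, 2609.7, 2205, 2731 and 2978 CPM, with ratios of -0.24 and 0.12. Rpl39l, the paralog of Rpl39 known from the male germ line, was at most 1.77 CPM in each library. Rps27rt matches Rps27 at 98.8% and Rpl6l matches Rpl6 at 98.7% of the bases of the shorter transcript. The last 100 bases of Rps27rt and Rpl6l match at 67% and 100%. Their counts may hold reads of the parent genes and are uncertain. Rps27rt was at 1550.3, 219, 149, 291 and 212 CPM, with both MDSC ratios below 0 (-0.55 and -0.46). Rpl6l was at 541, 160.0, 129, 171 and 139 CPM, with MDSC ratios of -0.31 and -0.30.

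The processed copies that reached 50 CPM were lower at 24 h with DCs than at 0 h, each by more than its parent gene. All 9 such copies were lower at 24 h with DCs than at 0 h, by -1.90 to -0.73 in log2 ratio, and all 9 ratios lay below those of their parent genes, with a median difference of -1.21. Rps12-ps3 was at 793 and 450.4 CPM (log2 ratio -0.82), while Rps12 was higher. Relative to the parent gene, the copies were at 2.45 to 21.5% at 0 h and at 0.660 to 8.41% in the 4 cultures. The copies match their parents at 93.5 to 100% of the bases of the shorter transcript. The assignment of reads that match both was not given in the sources used here. At 72 h with MDSCs against DCs, all 9 copies were lower (-0.38 to -0.14) and all 9 ratios lay below those of their parents, while 51 of the 77 core members were above 0.

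Rpl7l1 and Rps19bp1, the members that are not ribosomal proteins, were high at 24 h and low at 72 h. Rpl7l1 was at 97.9 CPM at 0 h, 243 (DC) and 227 (DC+MDSC) at 24 h, and 50.5 and 75.4 at 72 h. Rps19bp1 was at 59.4, 154, 180.0, 40.5 and 51.1 CPM. Both 24 h libraries were the highest and both 72 h libraries the lowest for each gene. At 72 h the log2 ratio with MDSCs was 0.58 for Rpl7l1 and 0.34 for Rps19bp1.

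The ribosome biogenesis list holds 45 nucleolar and processing factors that assemble ribosomes and leave them. Of 38 members that reached 50 CPM, 38 were at least 1.5-fold higher at 24 h with DCs than at 0 h (median log2 ratio 1.64), and 38 were lower at 72 h than at 24 h (median -2.27), where 44.9% of all genes were higher and 37.6% lower. Nop2, an RNA methyltransferase of the nucleolus, was at 12.4 CPM at 0 h, 103 and 109 at 24 h and 15.1 and 22.5 at 72 h, and Rrp9, a component of the U3 particle, was at 238 CPM at 24 h and 26.1 at 72 h. With MDSCs at 24 h 0 of 38 passed in either direction (median 0.14). At 72 h with MDSCs 12 of 21 were higher and 0 lower (median 0.60), against 9.03% and 13.2% of all genes. Among the 12 was Brix1, a factor of large subunit assembly, at 39.6 CPM without and 88.0 with MDSCs. Genes such as Brix1 entered this count only through the library where they were high. So did Nop2 in the count at 24 h with DCs against 0 h, and Nop2 and Rrp9 in that at 72 h against 24 h. All 45 genes summed to 5506 CPM at 0 h, 16593 and 17007 at 24 h, and 6092 and 7222 at 72 h. The core members had medians of -0.20, -0.04, -0.20 and 0.07 in these 4 comparisons.

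The proteins of the mitochondrial ribosome, which translates the few genes of mitochondrial DNA, had medians nearer to 0 than the biogenesis list at 24 h with DCs against 0 h and at 72 h against 24 h. Of 70 at the minimum level 38 were higher at 24 h with DCs than at 0 h and 0 lower (median 0.63), where 44.9% of all genes were higher and 20% lower. At 72 h 38 of 70 were lower and 1 higher (median -0.63), where 37.6% and 23.4% of all genes were. Mrpl37 was at 12.0 CPM at 0 h, 78.7 and 83.7 at 24 h and 27.5 and 32.9 at 72 h, and Mrps6 at 164 and 32.9 CPM at 24 h and 72 h. With MDSCs 0 of 70 passed at 24 h (median 0.19). At 72 h 12 of 64 were higher with MDSCs and 0 lower (median 0.31), against 9.03% and 13.2% of all genes. Mrps10, at 47.3 and 92.0 CPM, entered that count only through the library where it was high. Mrpl37 at 24 h with DCs against 0 h, and Mrpl37 and Mrps6 at 72 h against 24 h, entered their counts in the same way. All 77 genes of the list summed to 7772 CPM at 0 h, 11911 and 13656 at 24 h, and 8007 and 9806 at 72 h.

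Among the translation factors, Eef1a1 and Eef2 were lower at 24 h than at 0 h and Eif5a higher. Of 9 elongation factors at the minimum level, 4 were higher by 1.5-fold and 2 lower at 24 h with DCs (median 0.53). At 72 h against 24 h with DCs, 4 of 9 were lower and 0 higher (median -0.52). Of 35 initiation factors 21 were higher and 4 lower at 24 h with DCs (median 0.84), and 22 of 35 were lower and 1 higher at 72 h (median -0.93). The shares over all genes were 44.9% higher and 20% lower at 24 h, and 37.6% lower and 23.4% higher at 72 h. Eif2b3, at 9.58 CPM at 0 h, 62.7 at 24 h with DCs and 15.2 at 72 h, entered both counts only through the 24 h library. Eef1a1 and Eef2, elongation factors whose messenger RNAs are known TOP messages, stood at 9039 and 2383 CPM at 0 h and 5055 and 1506 at 24 h with DCs, and both were below their 0 h level in all 4 cultures. Eif5a, which helps the ribosome past difficult sequences, was at 815 CPM at 0 h, 3221 and 3518 at 24 h and 1139 and 1410 at 72 h. The list of 20 measured TOP messages other than ribosomal proteins had medians of -0.19, -0.10, -0.14 and 0.04 in the 4 comparisons. Those of the core were -0.20, -0.04, -0.20 and 0.07. At 72 h against 24 h with MDSCs the medians lay further apart, at 0.07 for that list and 0.26 for the core. Npm1, a nucleolar chaperone on that list, was at 1675 CPM at 0 h, 5342 and 4446 at 24 h and 3208 and 3308 at 72 h.

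Among the ribosomal proteins that the symbol rule misses were Fau, whose product holds Rps30, and Gnb2l1 (Rack1), a scaffold on the small subunit. Fau was at 5413 CPM at 0 h, 2883 (DC) and 2389 (DC+MDSC) at 24 h, and 4359.6 and 3152 at 72 h, so it was lower with MDSCs at both times. Gnb2l1 spanned 2356 to 2817 CPM. Rps27l, a relative of Rps27 known as a target of p53 and left out by the rule, was at 379, 1012, 1038, 776 and 2141 CPM. Its level at 72 h with MDSCs was above the other 4 libraries, with a log2 ratio of 1.46 against DCs, where Rps27 was at -0.11.

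Among core members, those with the TOP motif at the annotated start had other medians than the rest. At 24 h with DCs against 0 h the 13 with the motif had a median log2 ratio of -0.49 and the other 44 one of -0.17, with ranges of -1.99 to 0.42 and -1.49 to 1.06 that overlap. Of these 44, 21 had such a run within 10 bases of the start. With MDSCs at 24 h the medians were -0.15 and -0.22, and at 72 h with MDSCs 0.02 and 0.08. With DCs from 24 h to 72 h they were 0.09 and -0.06, and with MDSCs from 24 h to 72 h 0.27 and 0.26. Some members with the motif, such as Rps27, Rps21 and Rpl38, are also among those with the shortest coding sequences. The part of length in these medians was not tested. The order of the groups thus differed between comparisons.

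Within each cultured library, cells with a high ribosomal protein share held fewer cell cycle transcripts and, except at 72 h with MDSCs, less Gzmb by 1.5-fold or more. Cells were parted into 3 classes of equal size by the share, and other genes are given per 1000000 counts outside the family, so that the share itself does not lower them. At 24 h with DCs the median S phase sum was 7431 in the lowest and 4762 in the highest class, and that of the G2 and M phase list 4868 and 2695. Gzmb, a cytotoxic granule protease, stood at 2937 in the lowest and 867 in the highest class, whereas Il2, a growth factor made early after activation, stood at 533 and 1942. The same classes differed less at 24 h with MDSCs, with G2 and M phase sums of 6387 and 5194, Gzmb at 3808 and 2108 and Il2 at 445 and 555. At 72 h with DCs the G2 and M phase sums were 12967 and 7812 and Gzmb 4262 and 1730.0, and with MDSCs they were 12179 and 7468, with Gzmb at 4505 and 4256. The biogenesis sum was nearly the same in the lowest and highest classes of each cultured library, at 26620.4 and 28168 at 24 h with DCs and 11761 and 11656 at 72 h with MDSCs. Over the cells of a library, the Spearman correlation of the share with the summed cell cycle counts was -0.60 (DC) and -0.37 (DC+MDSC) at 24 h and -0.43 and -0.51 at 72 h. These summed counts were not set per counts outside the family, so a higher share by itself lowers them. The number of genes above 0 per cell ran the same way, with medians of 3840.0 and 3243 in the lowest and highest class at 24 h with DCs.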

How the data were processed

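Sorted cells went through 10x Genomics library preparation, per the labels' protocols. The submitters' processing notes name Cell Ranger 2.0.1, Seurat (no version) and the mm10 build. The authors deposited natural log values: each is ln(1 + k), with k a whole number for that gene and cell. Back-transformed, 0 values were off a whole number by over 1e-06. The authors' adjustment was not given in the sources used here. Totals per cell span 13061 to 15988 in the table of all time points, so they are not molecule counts and depth cannot be stated. No count model, thinning or doublet caller was used, and doublets were not treated.

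The whole numbers were summed per gene and library (Python 3.11.15, numpy 2.4.6, scipy 1.17.1, pandas 2.3.3). The library of each cell came from the deposited cell annotation. Columns of other samples numbered 0. Ratios used genes that reached 50 CPM in one of both libraries, and 1.5-fold was the size counted. With 1 library per group there are no replicate errors, so p-values were not computed. Simulated data with known folds were used to test the size rule. They held counting noise only and no spread between cultures, so they do not bear on differences between cultures. Lengths and positions are from GENCODE M21, starts from RefSeq (GRCm38.p6), matched by symbol for 63 of 99 members.

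The members and lists were chosen with earlier results of these data known. Named members were the 4 with the highest and the 4 with the lowest ratio in each comparison, 20 fixed members, and those off in opposite directions in both MDSC comparisons. A few of these genes are not reported here. Of each other list the 2 largest ratios past 1.5-fold each way could be named. Further core members, Eif4ebp1, Npm1 and the cell cycle, Gzmb and Il2 values by class of cells were chosen after values were seen.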

Additional observations from a re-analysis of the deposited data

Results flagged for a closer look

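Between the libraries with and without MDSCs, the ribosomal protein share differed with opposite signs at the 2 times. With MDSCs minus without, the share of the library differed by -5.11 percentage points at 24 h (33.7 against 38.8%) and by 1.67 points at 72 h (39.7 against 38.1%). Rpl22l1 also had opposite signs, with a log2 ratio of 0.41 at 24 h (1437 against 1081 CPM) and -0.61 at 72 h (1263 against 1926 CPM). In the highest class of cells by cell cycle counts, the median share at 72 h was 36.9% with and 37.0% without MDSCs. Each group was 1 library, so whether these differences come from the MDSCs or differ between 24 h and 72 h was not tested.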

How the results depend on the processing

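No paired analysis was possible because each group is 1 library. Sequencing depth is unknown and differences between cultures cannot be judged. Of 374 values of 22 named members under alternatives, 274 stayed within the tolerance of 0.05 in log2 ratio and 100 moved. Of the 374, 5 changed sign, all with the total without members and mitochondrially encoded genes, and 0 of these were past 1.5-fold: Rpl36al at 24 h with DCs against 0 h (0.09 to -0.10), Rpl36al, Rps12 and Rps2 at 72 h against 24 h with MDSCs (-0.05 to 0.09, -0.08 to 0.07 and -0.01 to 0.13) and Rps26 with MDSCs at 72 h (-0.05 to 0.0023). Libraries are listed as 0 h, 24 h DCs, 24 h MDSCs, 72 h DCs, 72 h MDSCs. The share was 86.5, 65.2, 52.3, 63.1 and 68.1% of a total without members and mitochondrially encoded genes, 49.1, 42.5, 37.1, 42.1 and 43.6% from mean natural log values, 44.2, 38.4, 33.2, 37.5 and 39.3% without copies and paralogs, and 45.7, 43.9, 35.6, 41.7 and 44.2% in the cells lowest in cell cycle counts. With equal weight per cell it was 45.1% at 0 h and 39.7% at 72 h with MDSCs. In the tables of single times it was 37.8, 34.2, 37.9 and 39.6% in the 4 cultures.

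For 24 h DCs against 0 h the median log2 ratio was -0.41 with the total without members (all genes 0.23 in place of 0.42), -0.029 in the cells lowest in cell cycle counts and -0.37 when centred. Members higher and lower were 2 and 13 without copies and paralogs and 10 and 40 at a smaller limit of 0.32 in log2 ratio. For 72 h against 24 h with DCs the centred median reversed to 0.11. Higher members were 0 without copies and paralogs, 3 in the cells lowest in cell cycle counts, 7 at the limit of 0.32, 0 at 2-fold and 3 when centred. Lower members were 1 without copies and paralogs, 2 at a minimum of 200 CPM, 8 at the limit of 0.32 and 2 at 2-fold.

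For MDSCs at 24 h the median was -0.32 with the total without members (all genes 0.06 in place of 0.17), -0.36 when centred, and -0.11 and -0.077 in the middle and highest classes by cell cycle counts, which were added after the data were seen. Lower members were 1 with that total, 1 from mean natural log values, 1 in the 24 h table, 1 at a minimum of 10 CPM, 14 at the limit of 0.32 and 4 when centred. Higher members were 1 in the cells lowest in cell cycle counts and 1 at the limit of 0.32. At 72 h the median reversed to -0.0087 in the highest class. Higher members were 1 with the total without members, 1 from mean natural log values, 1 in the lowest class and 4 at the limit of 0.32. Lower members were 0 with that total, 0 without copies and paralogs, 2 in the lowest class, 7 at the limit of 0.32 and 0 at 2-fold. For 72 h against 24 h with MDSCs the median was 0.39 with the total without members (all genes -0.33 in place of -0.48) and 0.48 when centred. Higher members were 12 with that total, 28 at the limit of 0.32, 0 at 2-fold and 23 when centred. Lower members were 1 without copies and paralogs, 2 at a minimum of 200 CPM and 2 at 2-fold. The cause of these changes was not tested. Leaving out genes of low variance at 0 h removed 0 members.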
